A study of Mus musculus with 12 samples.

Results

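The intercalated cell acid-base genes are 10 genes of the collecting duct and connecting tubule, listed by name for their role. The list was chosen with earlier results of these data known. The genes were read by Ensembl identifier from the gene tables of the 12 mice. All 10 were found among the 55401 genes of each table, and all 10 passed the filter on low counts that left 14159 genes for testing. They are the anion exchangers *Slc4a1*, *Slc26a4* and *Slc4a9*, the proton pump subunits *Atp6v1b1*, *Atp6v0d2* and *Atp6v1g3*, the transcription factor *Foxi1*, the carbonic anhydrases *Car2* and *Car15*, and the ammonia channel *Rhcg*. Whole-kidney RNA came from 12 male C57BL6 mice aged 8 weeks, with 1 library per mouse. The vehicle group (n = 6) was injected once into the peritoneum with 15% 2-hydroxypropyl-beta-cyclodextrin, and the SK-124 group (n = 6) with SK-124, an inhibitor of the salt-inducible kinases SIK2 and SIK3, at 40 mg/kg. No time between injection and RNA-Seq was given in the text of the study. The comparison asks how acute SIK2/SIK3 inhibition changes the kidney transcriptome, and it is read here for the cells that set urine pH.

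Intercalated cells are the acid-base cells of the distal nephron. Type A cells pump protons into the urine with a vacuolar proton ATPase in the apical membrane and return bicarbonate to the blood through the basolateral exchanger AE1, and type B cells secrete bicarbonate through the apical exchanger pendrin. Carbonic anhydrase supplies the protons and bicarbonate for both, and the forkhead factor FOXI1 is needed for the cells to form and to express much of this machinery.

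Promoter sequence from RefSeq (GRCm38.p6) was at hand for 6 of the 10 genes, *Slc26a4*, *Atp6v1b1*, *Atp6v1g3*, *Foxi1*, *Car15* and *Rhcg*. The 3 shown are those of the factor itself, of the pump subunit that was lower after SK-124 and of the exchanger pendrin that was higher, so that the letters a forkhead factor reads can be seen beside the values. Each run ends where the transcript starts in RefSeq or, for *Atp6v1b1*, in GENCODE, and the *Atp6v1b1* run is 223 bases long and the other 2 are 250 bases long. They lie at chr6:83742767-83742989 on the plus strand for *Atp6v1b1*, chr12:31559985-31560234 on the minus strand for *Slc26a4* and chr11:34208090-34208339 on the minus strand for *Foxi1*. Capitals mark a forkhead core.
Atp6v1b1: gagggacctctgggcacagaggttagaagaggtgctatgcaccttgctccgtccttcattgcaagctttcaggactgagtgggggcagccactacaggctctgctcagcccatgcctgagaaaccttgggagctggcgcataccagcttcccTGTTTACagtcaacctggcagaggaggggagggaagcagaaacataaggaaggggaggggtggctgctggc
Slc26a4: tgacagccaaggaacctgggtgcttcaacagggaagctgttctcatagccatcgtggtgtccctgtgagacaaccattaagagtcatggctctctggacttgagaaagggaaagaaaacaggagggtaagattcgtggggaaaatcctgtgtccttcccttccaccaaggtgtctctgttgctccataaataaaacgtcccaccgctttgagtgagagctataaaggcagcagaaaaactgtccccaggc
Foxi1: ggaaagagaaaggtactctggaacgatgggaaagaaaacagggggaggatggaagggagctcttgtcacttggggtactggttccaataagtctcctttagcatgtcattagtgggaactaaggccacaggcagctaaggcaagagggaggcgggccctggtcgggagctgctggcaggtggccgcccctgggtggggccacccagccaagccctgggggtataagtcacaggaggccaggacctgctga
The forkhead words searched, on both strands, were the word TGTTTAC, the word TATTTAC, the word TGTTTGC and the word TATTTGC in the 250 bases before the RefSeq start. Of the 6 promoters, *Atp6v1b1* alone held such a word, TGTTTAC, beginning 98 bases before the RefSeq start, and 11.9% of all 32851 RefSeq windows of this length held at least 1. That RefSeq start lies inside the GENCODE gene, past the end of the run shown. The cyclic AMP response element, bound by the CREB proteins whose coactivators are SIK substrates, was searched as TGACGTCA and as its shorter core TGACG, which also lies within the full word. None of the 6 held TGACGTCA (1.55% of all windows), and *Car15* held TGACG, beginning 238 bases before its RefSeq start (17.8% of all windows). The RefSeq start of *Car15* also lies inside its GENCODE gene. These are matches of letters in a short window and say nothing of binding.

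The libraries held between 19244227 and 19771802 expected counts (estimated reads per gene) each, with medians of 19552756 in vehicle-treated and 19475887 in SK-124–treated mice. The 10 most abundant genes took 39.9% to 43.2% of the counts in vehicle-treated mice and 38.6% to 46.8% in SK-124–treated mice, and SK-124–treated mice 1 to 3 lay above the vehicle range. Levels are given as CPM, which are counts scaled to the library total after edgeR's TMM method has centered the bulk of genes, and as TPM, the deposited values scaled to transcript length, where genes are compared with each other. SK-124 was set against vehicle by the quasi-likelihood test of edgeR, and the FDR is the Benjamini-Hochberg adjusted *P* over all 14159 genes. *Cyp27b1*, whose rise was the subject of the study, had a log2 fold change of 2.56, and *Cyp24a1*, the enzyme that inactivates vitamin D, had -2.32. In whole kidney, fewer cells of a type and less RNA per cell cannot be told apart.

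Of the 10 genes, 6 passed an FDR of 0.05, with 4 higher and 2 lower after SK-124, against 24.4% of all genes tested (10.8% higher and 13.5% lower). Because the 10 were chosen with earlier results of these data known, this count is a description and no test of the set. *Slc4a1* and *Atp6v1b1*, genes of the type A cell's bicarbonate exit and of the proton pump, were lower. *Slc4a9* and *Slc26a4*, exchangers of type B cells, were higher, as were *Foxi1* and *Car15*. *Atp6v0d2*, *Atp6v1g3*, *Car2* and *Rhcg* did not pass the test. The 10 had a median log2 fold change of 0.03, beside -0.0050 over every gene tested. In TMM-normalized CPM, the 6 mice of each group did not overlap in 3 genes, 2 of them lower and 1 higher. Of all genes tested, 6.65% and 6.32% separated in these directions.

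**Figure D1:**
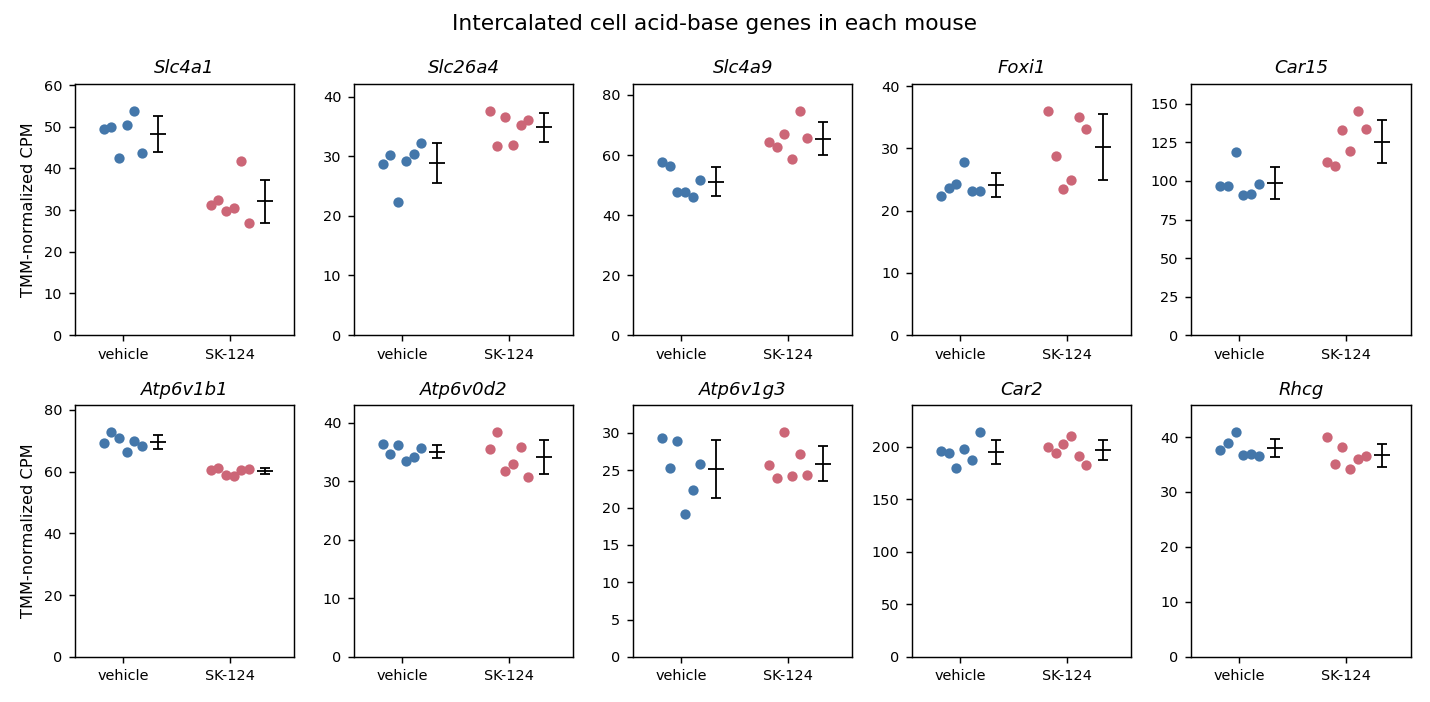
TMM-normalized CPM of the 10 genes in each mouse, with vehicle in blue and SK-124 in red and with the mean and SD of 6 mice as a cross line and bar beside the points; every axis starts at 0. The groups separate fully for *Slc4a1*, *Slc4a9* and *Atp6v1b1*, and the points overlap in the other 7 panels.

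*Slc4a1* encodes AE1, the chloride-bicarbonate exchanger of the basolateral membrane of type A cells, and the same gene supplies band 3 of red cells from another promoter. It lies at chr11:102348824-102366203 (GENCODE M21, GRCm38, minus strand) with no annotated gene overlapping it. Its level ran from 42.5 to 53.9 CPM in vehicle-treated mice, with a median of 49.8 CPM, and from 26.8 to 41.9 CPM in SK-124–treated mice, with a median of 30.9 CPM. All 6 SK-124–treated mice lay below the lowest vehicle-treated mouse, and SK-124–treated mouse 5 stood closest to it. The means were 48.3 ± 4.36 and 32.1 ± 5.15 CPM (SD, n = 6 each). *Slc4a1* fell by 33.6%, or -0.59 on the log2 scale (standard error 0.09, FDR = 0.000123, edgeR), and a 2-sided exact permutation test on log2(CPM + 0.5) gave *P* = 0.00216, the smallest value that 6 against 6 mice allow. The value was -0.68 without SK-124–treated mouse 5.

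Blood left in the kidney also carries *Slc4a1* transcript, so red cell genes were read in the same mice. Transcripts of *Rhag*, a red cell membrane gene, were nearly absent, with at most 1 count in any mouse, against 529 to 1136 counts of *Slc4a1*. *Alas2*, the first enzyme of heme synthesis in red cell precursors, had 54 to 193 counts. The 9 red cell markers together summed to 1287 to 3211 TPM in vehicle-treated mice and to 1214 to 2097 TPM in SK-124–treated mice, nearly all of it globin, and none of the 6 that were tested passed an FDR of 0.05 in edgeR or DESeq2, nor an unadjusted P of 0.05 in edgeR. All 6 nevertheless had a log2 fold change below 0, the direction of *Slc4a1*, with a median of -0.24. The lowest was *Epb42* at -0.40 (exact permutation *P* = 0.0433), with 7 to 20 counts per mouse. Across the 6 vehicle-treated mice log2 *Slc4a1* TPM and log2 globin TPM had a Pearson *r* of -0.31, and across the 6 SK-124–treated mice 0.78, values that share each mouse's library and are given as a description. SK-124–treated mouse 5, the highest of its group for *Slc4a1*, ranked 5 of 12 for globin. The part of blood in the *Slc4a1* difference was not tested further.

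*Slc4a9* encodes AE4, a basolateral exchanger found mainly in type B cells. Its level was 46.2 to 57.6 CPM (median 49.6 CPM) in vehicle-treated mice and 58.6 to 74.8 CPM (median 64.9 CPM) in SK-124–treated mice. All 6 SK-124–treated mice were above the highest vehicle-treated mouse, by a margin of about 1 CPM at the closest. This separation was seen in TMM-normalized CPM only. In TPM the groups overlapped, at 19.58 to 28.35 after vehicle and 22.46 to 32.74 after SK-124, and they overlapped in expected counts as well. The means were 51.2 ± 4.83 and 65.5 ± 5.39 CPM (SD, n = 6 each), a rise of 27.9% or 0.36 on the log2 scale (standard error 0.07, FDR = 0.00102, edgeR; exact permutation *P* = 0.00216).

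*Slc26a4* encodes pendrin, the apical exchanger through which type B cells release bicarbonate into the urine in return for chloride. It lies at chr12:31519827-31559969 on the minus strand. Vehicle-treated mice ran from 22.3 to 32.2 CPM with a median of 29.7 CPM, and SK-124–treated mice from 31.7 to 37.6 CPM with a median of 35.6 CPM. Of the 6 SK-124–treated mice, 4 were above every vehicle-treated mouse and all were above the vehicle median, so the groups touched at their edges. *Slc26a4* rose by 20.7%, or 0.27 on the log2 scale (standard error 0.08, FDR = 0.0167, edgeR; exact permutation *P* = 0.00649). Vehicle-treated mouse 3, at 22.3 CPM, was far below the other 5, and without it the log2 fold change was 0.21.

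*Foxi1* encodes the forkhead factor of intercalated cells and lies at chr11:34204338-34208089 on the minus strand. It ran from 22.4 to 27.8 CPM (median 23.4 CPM) after vehicle and from 23.4 to 36.1 CPM (median 30.9 CPM) after SK-124. The SK-124 values fell on both sides of the vehicle maximum, with 4 mice above it and 2 among the vehicle values, and their coefficient of variation was 17.6% against 7.95% in vehicle-treated mice. *Foxi1* rose by 25.6%, or 0.33 on the log2 scale (standard error 0.10, FDR = 0.0220, edgeR; exact permutation *P* = 0.0216). This call rested on single mice, since the FDR was 0.0550 without SK-124–treated mouse 1, 0.0548 without mouse 5 and 0.0530 without mouse 6.

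The vacuolar proton ATPase is built of a V1 sector that splits ATP and a membrane V0 sector that carries the protons, and intercalated cells use their own isoforms of some subunits. *Atp6v1b1* encodes the B1 subunit of V1, the isoform of intercalated cells and the inner ear, and lies at chr6:83742990-83758855 on the plus strand. It ran from 66.3 to 72.7 CPM (median 69.5 CPM) after vehicle and from 58.6 to 61.2 CPM (median 60.5 CPM) after SK-124. The SK-124 values were tightly packed, with a coefficient of variation of 1.76% against 3.13% after vehicle, and all 6 lay below the vehicle range. *Atp6v1b1* fell by 13.6%, or -0.21 on the log2 scale (standard error 0.04, FDR = 0.00156, edgeR; exact permutation *P* = 0.00216). It was thus a small change with little spread, the smallest in size of the 6 genes that passed the test.

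*Atp6v0d2* encodes the d2 subunit of V0, which macrophages and osteoclasts also use. It ran from 33.5 to 36.3 CPM after vehicle and from 30.7 to 38.4 CPM after SK-124, with medians of 35.2 and 34.3 CPM. The SK-124 range enclosed the vehicle range, and the log2 fold change was -0.04 (95% interval -0.16 to 0.09, FDR = 0.702, edgeR). Of the 6 macrophage and osteoclast markers read beside it, *Cd68* alone passed the test, at a log2 fold change of -0.60, and the summed level of the 6 was 44.5 to 53.8 TPM after vehicle and 35.7 to 52.6 TPM after SK-124. *Csf1r* (0.18, FDR = 0.0578, edgeR) and *Lyz2* (0.06) were above 0, and the median of the 6 was -0.08. In DESeq2 1 of the 6 was called higher and 1 lower. Of all 14159 genes tested, 10.8% were higher and 13.5% lower in edgeR, and 1724 were higher and 1832 lower in DESeq2. *Atp6v1g3* encodes the G3 subunit of V1, a kidney isoform of the stalk. It ran from 19.1 to 29.3 CPM (median 25.5 CPM) after vehicle and from 23.9 to 30.1 CPM (median 25.0 CPM) after SK-124. The ranges overlapped almost throughout, with a log2 fold change of 0.04 (95% interval -0.15 to 0.24, FDR = 0.785, edgeR).

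The other subunits of the pump, most of them shared by many cell types, were read beside these 3. The counts that follow are to be read beside 10.8% of all genes tested that were higher and 13.5% that were lower. Of 10 V1 subunits tested, 2 were higher and 1 was lower, with a median log2 fold change of 0.08. The higher ones were *Atp6v1b2* (0.17, FDR = 0.0152, edgeR), the widespread B2 isoform, and *Atp6v1e1* (0.15, FDR = 0.0379), and the lower was *Atp6v1c2* (-0.33, FDR = 0.0124), a C subunit isoform of kidney and lung. Of 9 V0 subunits tested, 3 were higher and none was lower in edgeR or DESeq2, with a median of 0.12, and none was lower at an unadjusted P of 0.05 either. These were *Atp6v0a4* (0.32, FDR = 0.000554, edgeR), the a4 isoform of intercalated cells, *Atp6v0d1* (0.26, FDR = 0.000706), the widespread partner of d2, and *Atp6v0e* (0.20, FDR = 0.0331). Both accessory proteins were higher, *Atp6ap1* at 0.16 (FDR = 0.0235, edgeR) and *Atp6ap2*, the prorenin receptor, at 0.24 (FDR = 0.00537). The calls of *Atp6v1e1* and *Atp6v0e* were weak, since leaving out any of 8 of the 12 mice took the FDR past 0.05, to as much as 0.0927 for *Atp6v1e1*, which leaves 1 V1 subunit higher, and 0.0798 for *Atp6v0e*. That of *Atp6ap1* was lost for 2 of the 12. Under limma on log2(TPM + 1), 1 V0 subunit was called lower. *Tmem213* overlaps *Atp6v0a4* on the opposite strand, and whether the counting used strand was not given in the sources used here.

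**Figure D2:**
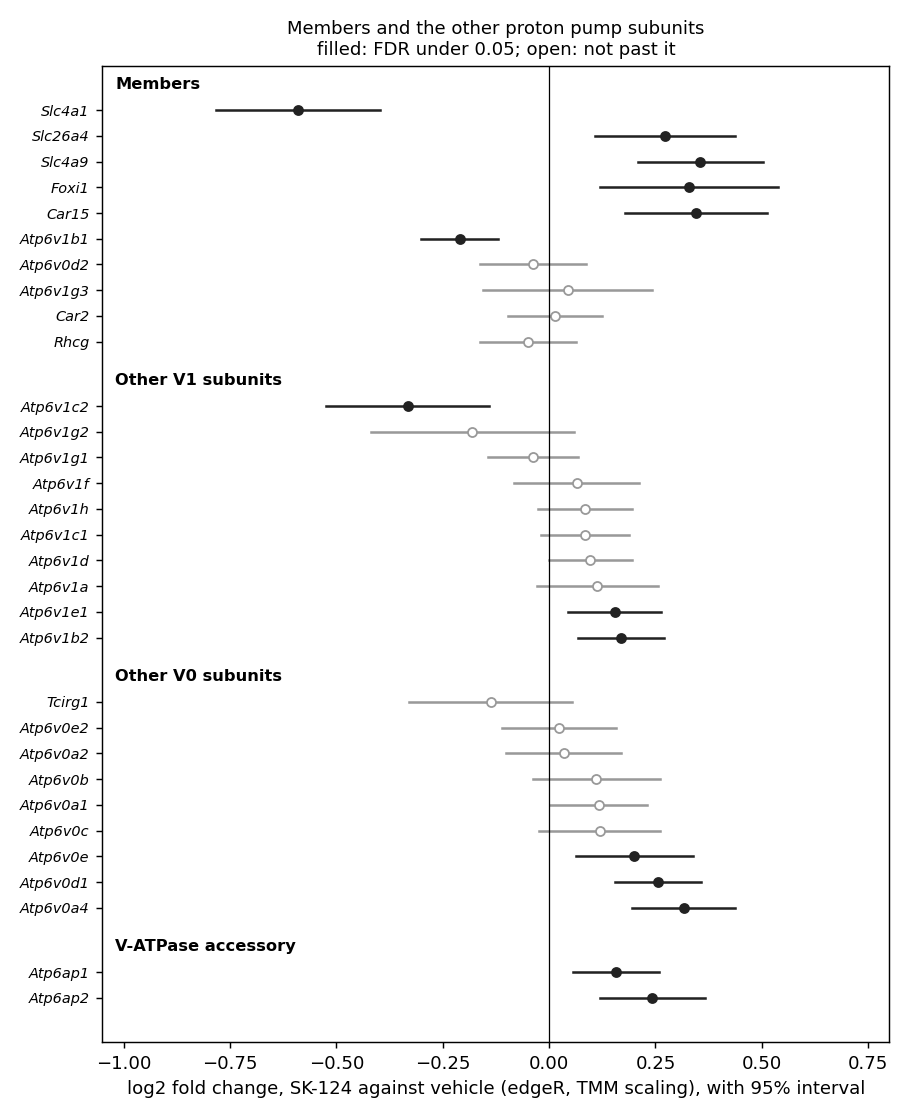
Log2 fold change of SK-124 against vehicle (edgeR, TMM scaling, 6 mice per group) with its 95% interval for the 10 genes and the other subunits of the proton pump; filled points passed an FDR of 0.05. *Slc4a1* at -0.59 lies farthest from 0, and *Atp6v1b1* and *Atp6v1c2* lie to the left while the V0 subunits that passed lie to the right.

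The share of the intercalated cell isoform in its isoform pair was compared as well, a ratio within each mouse that library scaling cannot change. It pools all cells of the kidney, and B2 and d1 are widespread. The share therefore does not show which isoform the pumps of intercalated cells hold. B1 made up 33.9% to 39.2% of the B1 and B2 TPM after vehicle (median 35.9%) and 28.4% to 31.2% after SK-124 (median 30.1%), without overlap. The mean share was 36.1% ± 1.78 and 30.0% ± 1.01 (SD, n = 6 each), a difference of -0.40 in the log2 ratio (standard error 0.05, exact permutation *P* = 0.00216, adjusted over 3 pairs 0.00325). The d2 share also separated fully, from 26.7% ± 0.778 to 22.9% ± 1.56 (SD, n = 6 each), a difference of -0.30 in the log2 ratio (standard error 0.06, exact permutation *P* = 0.00216, adjusted 0.00325). In this pair *Atp6v0d1* rose while *Atp6v0d2* itself did not pass the test. The G3 share of G3 and G1 was 19.4% ± 2.11 and 20.4% ± 1.17 (SD, n = 6 each), a difference of 0.09 in the log2 ratio (standard error 0.09, adjusted exact permutation *P* = 0.374).

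Ratios between exchangers were also read within each mouse. They were chosen after their values were seen, so they are given without a test. The ratio of *Slc26a4* to *Slc4a1* TPM was 0.713 to 0.941 (median 0.760) after vehicle and 1.15 to 1.92 (median 1.49) after SK-124, so that in every vehicle-treated mouse *Slc4a1* was the more abundant transcript and in every SK-124–treated mouse *Slc26a4* was. The ratio of *Slc4a9* to *Slc4a1* was 1.43 to 2.68 (median 2.08) after vehicle and 3.30 to 4.99 (median 3.82) after SK-124. Against each other, *Slc4a9* and *Slc26a4* kept overlapping ratios, 2.00 to 3.22 after vehicle and 2.40 to 2.86 after SK-124. The ratio of *Foxi1* to *Atp6v1b1* was 0.239 to 0.309 (median 0.251) after vehicle and 0.309 to 0.450 (median 0.378) after SK-124, with the groups meeting at 0.309 but not crossing.

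**Figure D3:**
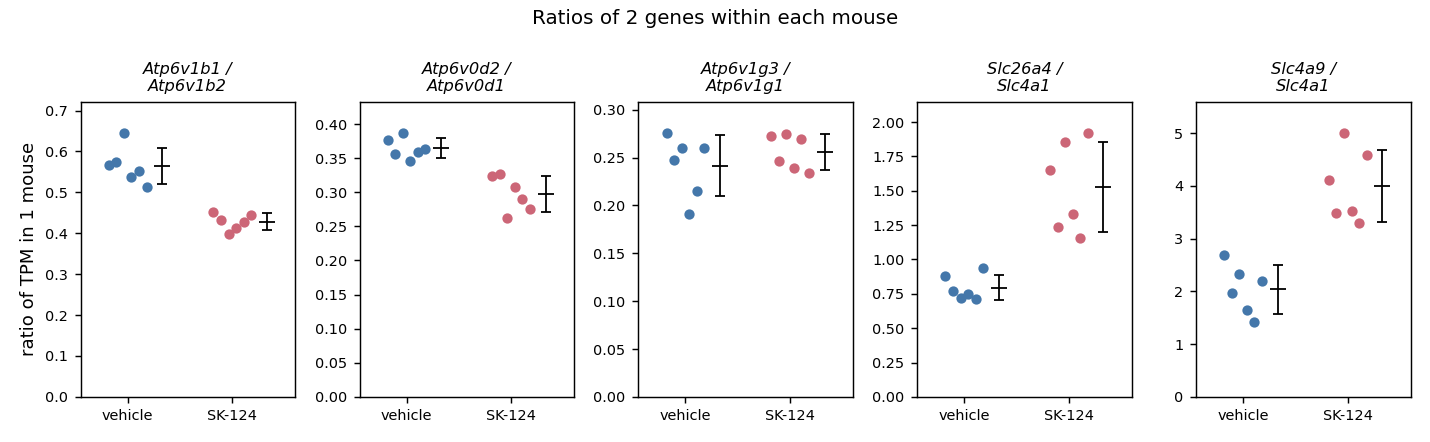
Ratio of the TPM of 2 genes within each mouse, with vehicle in blue, SK-124 in red, and the mean and SD of 6 mice beside the points; every axis starts at 0. The ratios of *Atp6v1b1* to *Atp6v1b2* and *Atp6v0d2* to *Atp6v0d1* are lower in all 6 SK-124–treated mice, those of *Slc26a4* and *Slc4a9* to *Slc4a1* are higher in all 6, and that of *Atp6v1g3* to *Atp6v1g1* overlaps.

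*Car2* encodes the cytosolic carbonic anhydrase II of intercalated cells and of other tubule segments, and lies at chr3:14886273-14900770 on the plus strand. It ran from 180 to 214 CPM (median 195 CPM) after vehicle and from 183 to 210 CPM (median 197 CPM) after SK-124. The SK-124 range lay inside the vehicle range, with a log2 fold change of 0.01 (95% interval -0.10 to 0.13, FDR = 0.875, edgeR). *Car15* encodes a membrane-anchored carbonic anhydrase and lies at chr16:17835276-17838364 on the minus strand. It ran from 90.9 to 119.0 CPM (median 96.8 CPM) after vehicle and from 110 to 146 CPM (median 126 CPM) after SK-124. Vehicle-treated mouse 3 held the vehicle maximum, 4 SK-124–treated mice exceeded it, and all 6 exceeded the vehicle median. *Car15* rose by 27.1%, or 0.35 on the log2 scale (standard error 0.08, FDR = 0.00351, edgeR; exact permutation *P* = 0.00649), and 0.41 without vehicle-treated mouse 3. The predicted gene *Gm20518* overlaps *Car15* on the same strand, its mean expected count was 239 after vehicle and 339 after SK-124 (log2 fold change 0.63, FDR = 3.38e-05, edgeR), and the counts of both were fractional, so the *Car15* value is uncertain.

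Of the 11 other carbonic anhydrases tested, 4 were lower and none was higher in edgeR or DESeq2, with a median log2 fold change of -0.15, and none was higher at an unadjusted P of 0.05 either. Over all genes tested, 13.5% were lower and 10.8% higher. The 4 were *Car8* (-0.64, FDR = 0.00472, edgeR), a relative without enzyme activity, cytosolic *Car7* (-0.63, FDR = 0.00226), and the membrane enzymes *Car12* (-0.37, FDR = 0.000715) and *Car14* (-0.23, FDR = 0.00573). *Car8* and *Car7* were low, with medians of 2.79 and 2.88 CPM after vehicle, and *Car12* was the most abundant of the 4, at 236 CPM after vehicle and 175 CPM after SK-124. Of 13 other exchangers and transporters of the SLC4 and SLC26 families tested, 1 was higher and 3 were lower, to be read beside the same shares of all genes. The 4 transporters were *Slc4a7* (0.40, FDR = 0.00614, edgeR), which carries sodium with bicarbonate, the sodium-bicarbonate cotransporter *Slc4a5* (-0.96, FDR = 0.00166), the sulfate transporter *Slc26a2* (-0.39, FDR = 0.0116) and *Slc4a8* (-0.32, FDR = 0.0183), a sodium-driven exchanger of type B cells. Of these, *Slc4a5* was low, at 16 to 38 counts per mouse after vehicle and 10 to 16 after SK-124. Its log2 fold change ran from -1.13 to -0.22 over the settings run. *Slc4a2*, the widespread relative of *Slc4a1*, had a log2 fold change of 0.06 (95% interval -0.05 to 0.16, FDR = 0.468, edgeR).

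*Rhcg* encodes an ammonia channel of intercalated and principal cells through which ammonia reaches the urine, and lies at chr7:79593363-79617657 on the minus strand. It ran from 36.5 to 40.9 CPM (median 37.3 CPM) after vehicle and from 34.1 to 40.02 CPM (median 36.3 CPM) after SK-124. Of the SK-124–treated mice 3 were below the vehicle range and none was above it, and the log2 fold change was -0.05 (95% interval -0.16 to 0.06, FDR = 0.555, edgeR). Its basolateral relative *Rhbg* was at -0.09 (95% interval -0.25 to 0.07, FDR = 0.424, edgeR). An unnamed predicted transcript, *Gm45170*, overlaps *Rhcg* on the same strand at 29 to 51 counts per mouse and did not pass the test.

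Compared per length, *Car2* and *Car15* were the most abundant of the 10 transcripts, at medians of 136 and 126 TPM after vehicle, and *Atp6v1b1* followed at 40.3 TPM without overlapping either. *Rhcg* (23.7 TPM) and *Slc4a9* (22.8 TPM) came next and did not differ beyond their spread. The next gap between neighbors without overlap was below *Slc4a9*, and *Atp6v1g3* (14.2 TPM), *Atp6v0d2* (13.96 TPM), *Slc4a1* (11.9 TPM), *Foxi1* (10.3 TPM) and *Slc26a4* (9.44 TPM) each overlapped the neighbor in this order. After SK-124 *Slc4a1* moved from rank 8 to rank 10, with a median of 6.24 TPM, below *Foxi1* (11.5 TPM) and *Slc26a4* (9.90 TPM), though its range of 5.30 to 9.92 TPM still reached that of *Slc26a4*. The medians of *Car15* (149 TPM) and *Car2* (121 TPM) changed places with overlapping ranges. On the TPM scale *Slc4a1* overlapped between the treatment groups, because the lowest vehicle-treated mouse had 9.13 TPM. *Slc4a9* overlapped on this scale too, with 28.35 TPM in the highest vehicle-treated mouse and 22.46 TPM in the lowest SK-124–treated mouse. *Atp6v1b1* did not overlap, at 36.47 to 42.25 TPM after vehicle and 27.15 to 35.8 TPM after SK-124.

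**Figure D4:**
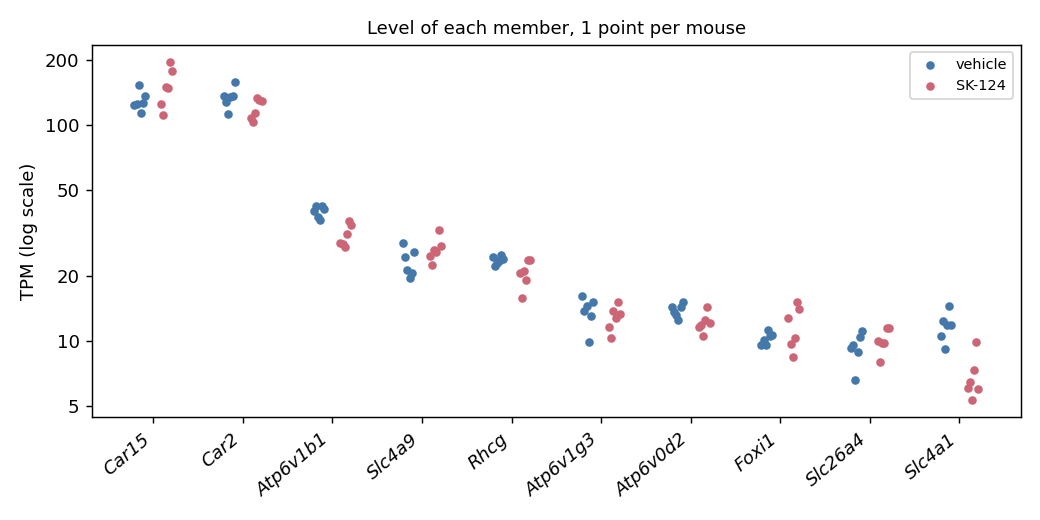
TPM of the 10 genes on a log axis, 1 point per mouse, with vehicle in blue and SK-124 in red, ordered by the median over all 12 mice. *Car15* and *Car2* lie between 103 and 197 TPM, and *Slc4a1* is at the lower end with 5.30 to 9.92 TPM after SK-124.

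Of 18 other genes typical of intercalated cells, 2 were higher and 4 were lower, to be read beside 10.8% and 13.5% of all genes tested, and their median log2 fold change was 0.01. Higher were *Hepacam2* (0.57, FDR = 2.78e-05, edgeR), an adhesion molecule, which ran from 8.54 to 10.7 CPM after vehicle and from 12.2 to 16.0 CPM after SK-124 without overlap, and *Atp6v0a4*, given above. Lower were *Atp6v1c2* and *Slc4a8*, also given above, *Insrr* (-0.30, FDR = 0.00273, edgeR), a receptor that senses alkaline pH, and the receptor kinase *Kit* (-0.28, FDR = 0.0116). The summed level of 9 intercalated cell markers, 7 of them among the 10 genes, was 135 to 159 TPM after vehicle and 119 to 176 TPM after SK-124, so the ranges overlapped. Among 9 markers of the neighboring principal cells *Aqp2* was higher (0.75, FDR = 0.000852, edgeR) and *Avpr2* (-1.17, FDR = 4.96e-07) and *Hsd11b2* (-0.35, FDR = 9.99e-05) were lower, and their sum was 220 to 321 TPM after vehicle and 176 to 337 TPM after SK-124.

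Of 8 regulators and sensors of acid-base balance that were tested and are reported, 1 was higher and 4 were lower, to be read beside 10.8% and 13.5% of all genes tested. *Lgals3*, a lectin linked to intercalated cell maturation, ran from 14.9 to 23.5 CPM after vehicle and from 20.7 to 38.9 CPM after SK-124 (log2 fold change 0.81, FDR = 0.000493, edgeR). The calcium-sensing receptor *Casr* (-0.70, FDR = 0.00161, edgeR), the mineralocorticoid receptor *Nr3c2* (-0.67, FDR = 0.000127), the proton-sensing receptor *Gpr4* (-0.48, FDR = 0.0139) and *Insrr*, given above, were also lower. These genes are used by several cell types of the kidney, and their values do not belong to intercalated cells alone.

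With library totals in place of TMM in the same test, *Slc26a4*, *Foxi1* and *Car15* lost their calls, and *Slc4a9*, *Slc4a1* and *Atp6v1b1* kept theirs. With RLE, another library scaling, in the same test, 4 of the 10 genes were higher and 2 lower, as with TMM. Over all 14159 genes, 1610 were higher and 1847 lower with RLE. *Slc26a4* (FDR = 0.0163, edgeR), *Foxi1* (FDR = 0.0201) and *Car15* (FDR = 0.00263) kept their calls there. The TMM factors of SK-124–treated mice 1 to 3, between 0.889 and 0.915, were the lowest of the 12. With library totals alone the center of all genes, as median log2 fold change, moved to -0.12, with 777 genes higher (5.49%) and 3058 lower (21.6%), and *Slc4a9* was the only 1 of the 4 that still passed (0.24, FDR = 0.0415, edgeR). *Car15* was then at 0.24 (FDR = 0.0666), *Foxi1* at 0.22 (FDR = 0.139) and *Slc26a4* at 0.15 (FDR = 0.249), all above that median. On log2(TPM + 1) with limma, which changes the test and the measure as well as the scaling, the median of all genes was -0.11 and none of the 4 passed, nor did any at an unadjusted P of 0.05, with *Slc4a9* at 0.19 (FDR = 0.234), *Car15* at 0.20 (FDR = 0.276), *Foxi1* at 0.15 (FDR = 0.423) and *Slc26a4* at 0.11 (FDR = 0.532). *Slc4a1* was at -0.70 and -0.71 and *Atp6v1b1* at -0.32 and -0.36 under these settings, and both passed. Of the higher V1, V0 and accessory subunits, *Atp6v0a4* alone still passed with library totals, and none did with limma. Limma instead called the V0 subunit *Tcirg1*, an a3 isoform best known from osteoclasts, lower (-0.43 on log2(TPM + 1), FDR = 0.0399, limma; -0.14 with TMM, FDR = 0.304, edgeR).

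**Figure D5:**
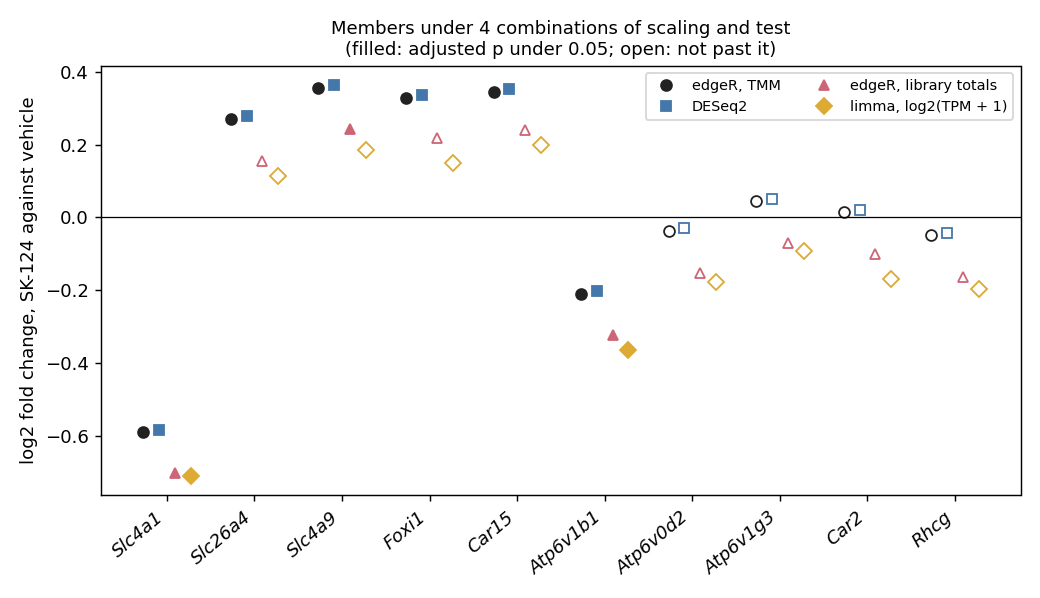
Log2 fold change of SK-124 against vehicle for the 10 genes under 4 combinations of scaling and test, with filled symbols for an adjusted P under 0.05. *Slc4a1* and *Atp6v1b1* are filled and below 0 under all 4, and the 4 genes above 0 are filled with TMM and with DESeq2, while with library totals *Slc4a9* alone is and with limma none is.

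The comparison was repeated against vehicle with SK-124–treated mice 1 to 3 only, whose most abundant genes took the larger share, and with mice 4 to 6 only, a split made after the data were seen. *Slc4a1* was at -0.63 with mice 1 to 3 and at -0.54 with mice 4 to 6, *Atp6v1b1* at -0.21 with either, and *Slc4a9* at 0.34 and 0.38, and these 3 passed an FDR of 0.05 each time. *Car15* was at 0.26 (FDR = 0.0693, edgeR) and 0.43, and *Foxi1* at 0.29 (FDR = 0.102) and 0.37, passing with mice 4 to 6 only. *Slc26a4* was at 0.29 (FDR = 0.0693) and 0.26 (FDR = 0.0964), passing with neither group of 3. Both comparisons used the same vehicle-treated mice, so their results are not independent of each other. The difference between the 2 sets of SK-124–treated mice was not tested.

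Within the treatment groups, pairs of the 10 genes had mostly low correlations over the mice. Pairs of other genes were not read for comparison. Of the 45 pairs, 2 had a Pearson *r* above 0.5 over the 12 mice after centering on the group means, *Atp6v1g3* with *Car15* (0.586) and *Slc4a9* with *Atp6v1g3* (0.531), and 17 were below 0, with a median of 0.144. The lowest was *Atp6v1b1* with *Car2* at -0.569. The mean of *Slc26a4*, *Slc4a9*, *Atp6v1b1*, *Atp6v0d2*, *Atp6v1g3* and *Foxi1*, centered in the same way, was most like *Spout1* (*r* = 0.939, Spearman rho 0.902), *AI480526* (0.884), *Afg3l2* (0.879), *Slc8a1* (0.874), *2810002D19Rik* (0.872) and *Zmym1* (0.847), out of 12998 genes averaging 1 CPM or more. These correlations share libraries and depth, rank many genes over 12 mice, and are a description only.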

How the data were processed

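Whole-kidney RNA-Seq tables of 12 mice were read. The authors deposited RSEM output for each mouse, in which the expected count is an estimate of the reads of a gene and is not normalized. The deposited TPM in the same tables were scaled by RSEM to effective length and library total. The submitters' processing notes name FastQC, STAR 2.7.2b, RSEM 1.3.0, DESeq2 and mm10, and the annotation and the use of strand were not given in the sources used here. Gene symbols and coordinates come from GENCODE M21 (GRCm38), which held 54349 of the 55401 identifiers in the same version.

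Expected counts were rounded, scaled with TMM, filtered with filterByExpr and compared by group with the quasi-likelihood test of edgeR without a replicate block. Standard errors are the log2 fold change over the root of F. Exact permutation tests used all 12 mice. No library looked duplicated (smallest chi-square per degree of freedom 4.69 in 30 pairs), and totals were alike (19244227 to 19771802 counts), and precision is lowest for genes with few counts. The labels name 12 samples of separate mice and no batch. The fit was checked on simulated counts.

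The 10 genes and the gene lists were chosen with earlier results of these data known. Named genes are the 10, up to 4 genes per list with an FDR under 0.05 and the largest change, their paralogues, the 6 genes most alike, *Cyp27b1* and *Cyp24a1*. *Aqp2*, *Avpr2*, *Hsd11b2*, *Cd68*, *Csf1r*, *Lyz2*, *Tcirg1*, the red cell markers, the overlapping genes and, beyond 4 in their list, *Insrr* and *Gpr4* were chosen once their values had been seen. From the lists, 3 genes are not reported here. Tried as alternatives were RLE, DESeq2, library totals, no filter, at least 10 counts in every mouse, limma on log2(TPM + 1) and log2(TPM + 0.1), the mouse number as a block and each mouse left out. SK-124–treated mice 1 to 3 or 4 to 6 alone were added after seeing the data. R 4.3.3 with DESeq2 1.42.0, edgeR 4.0.16 and limma 3.58.1, and Python 3.11.15 with scipy 1.17.1, numpy 2.4.6, matplotlib 3.10.9 and pandas 2.3.3 were used.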

Additional observations from a re-analysis of the deposited data

Results flagged for a closer look

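A single mouse stood far from the other 5 of its group (Dixon's test at 95%) in 11 of the 78 sets of 6 values looked at, where chance gives about 4, or 1 in 20. Among the 10 genes these were *Slc4a1* in SK-124–treated mouse 5 (41.9 CPM, the highest of its group), *Slc26a4* in vehicle-treated mouse 3 (22.3 CPM, the lowest), *Foxi1* in vehicle-treated mouse 4 (27.8 CPM, the highest) and *Car15* in vehicle-treated mouse 3 (119.0 CPM, the highest). Vehicle-treated mouse 3 also stood apart as the highest for *Atp6v0e* (71.2 CPM) and *Lgals3* (23.5 CPM) and as the lowest for *Car12* (195 CPM), *Slc4a7* (4.90 CPM) and *Casr* (25.7 CPM). The remaining ones were *Atp6ap2* in SK-124–treated mouse 1 (44.0 CPM, the lowest) and *Cyp24a1* in SK-124–treated mouse 4 (44.6 CPM, the highest). Vehicle-treated mouse 3 had the most globin transcript of the 12 mice, at 3203 TPM, against 1212 TPM in the lowest. Without it, *Slc26a4* and *Car15* passed an FDR of 0.05 as they did with it.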

How the results depend on the processing

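*Slc4a1* and *Atp6v1b1* passed an FDR of 0.05 in 23 of the 23 settings run, *Slc4a9* in 21, *Car15* in 19, *Slc26a4* in 18 and *Foxi1* in 16. Of the 10 genes, 1 was called higher with library totals, 0 with limma on log2(TPM + 1) or log2(TPM + 0.1), and 1 with SK-124–treated mice 1 to 3. Over all genes, the number higher was 777 with library totals, 500 and 498 with limma, and 1065 with SK-124–treated mice 1 to 3. The number lower was 3058 with library totals, 1233 with SK-124–treated mice 1 to 3 and 1267 with mice 4 to 6, where fewer mice were compared. With each mouse left out, the genes higher numbered 1320 to 1863 over all and 3 to 4 of the 10, and those lower 1633 to 2079 and 2 of the 10. The difference in log2 ratio then ranged from -0.43 to -0.36 for the B1 share, from -0.32 to -0.26 for d2 and from 0.03 to 0.13 for G3. Signs turned only in genes that did not pass the test. *Atp6v1g3* went to -0.0699 with library totals, -0.0916 and -0.0974 with the 2 limma fits, and with each mouse left out ranged from -0.0220 to 0.0919, below 0 also without SK-124–treated mouse 3 (-0.00284). *Car2* went to -0.100, -0.170 and -0.172, and ranged from -0.00785 to 0.0424, below 0 also without SK-124–treated mouse 4 (-0.00522). *Slc4a2* went to -0.0553, -0.107 and -0.115, *Atp6v0d2* to 0.00838 with SK-124–treated mice 1 to 3 and *Rhbg* to 0.0385 with mice 4 to 6. The cause of these changes was not tested.

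The mouse numbers belong to different mice. Same-numbered mice had correlations of -0.131 to 0.217, over 0.1 in 2 of 6 pairs. For 2 of the 6 numbers, the 2 mice correlated best with each other across the groups. The numbers were not taken to pair the mice in the main fit. With the number as a replicate block, 1573 genes were higher and 1893 lower, and of the 10 genes 4 and 2 were.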
